A study of Rattus norvegicus with 5 samples.

Results

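The 8 genes described here encode receptors through which hormones of appetite, energy stores and growth can reach the ventral tegmental area (VTA) of the rat: *Lepr*, *Insr*, *Igf1r*, *Ghsr*, *Mc3r*, *Mc4r*, *Calcr* and *Gipr*. They were chosen by name, with earlier results of these data known, and are 8 of the 32883 genes listed. All 8 were present in each of the 5 libraries. The libraries came from 5 adult male Sprague-Dawley rats, 1 library per rat, made from nuclei of frozen bilateral VTA punches that were combined within a rat. All 5 rats form 1 group, which the labels give as saline treated and the paper, in a figure legend, as drug-naïve, so the comparisons are between cell classes of the same rats and there is no untreated or treated arm to set against them.

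Leptin, made by fat tissue, acts through Lepr and JAK-STAT signalling, and insulin and the insulin-like growth factors act through the tyrosine kinases Insr and Igf1r and their adaptors. Ghsr is the receptor of the stomach hormone ghrelin, Mc3r and Mc4r are the melanocortin receptors of the brain, Calcr binds calcitonin and, with accessory proteins of the Ramp family, the satiety hormone amylin, and Gipr is the receptor of the gut hormone GIP. Dopamine neurons of the VTA drive reward learning, and leptin, insulin, ghrelin and amylin have each been studied there as signals that alter feeding.

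The libraries held 10193355 to 88576210 UMIs (unique molecular identifiers, counted RNA molecules). Barcodes were kept with at least 1000 UMIs, 201 to 4999 genes and under 5% of UMIs from mitochondrial genes, which left 22084 barcodes, 1813 to 9336 per rat. Clusters were named from fixed marker lists as dopamine-like, GABA-like, glutamate-like and so on, given here by the short names, and 15703 nuclei were typed. These were 952 dopamine, 2412 GABA and 842 glutamate neurons, 151 serotonin and 571 unsettled neurons, 265 vascular nuclei, 372 microglia, 816 astrocytes, 8378 oligodendrocytes, 740 of their precursors (OPCs) and 204 committed precursors. *Th* was detected in 84.7% of dopamine neurons and *Slc6a3* in 79.3%, *Gad1* in 62.8% of GABA neurons, and *Slc17a6* in 56.9% of glutamate neurons. Other markers were sparser, with *Gad2* in 59.1% and *Slc32a1* in 38.3% of GABA neurons. *Slc17a7* was in 5.94% of glutamate neurons, and *Slc17a8* in 1.66% of them against 2.74% of GABA neurons. *Th* was also detected in 27.7% of oligodendrocytes, which should lack it, and free RNA was estimated at 4.85 to 18.35% of the UMIs of nuclei, so the oligodendrocyte share is given beside each neuronal share.

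The library of rat 3 stood apart. Its dopamine neurons had a median of 1764 UMIs against 8181 to 9828 in rats 2, 4 and 5, and they formed a cluster of their own. Rat 1 gave 6 dopamine neurons, so its dopamine sum was not used (a sum needed 10 nuclei), and rat 3 gave 2 microglia and 3 vascular nuclei, which were not used either. Between 0 and 16 barcodes were shared by any pair of libraries. Levels are UMIs of a gene per 10000 UMIs of the class in a rat, and they are compared between classes for 1 gene, not between genes, because a longer gene can yield more reads. In summed nuclei, more cells with a transcript and more transcript per cell cannot be told apart from the level alone, so shares of nuclei are given too.

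The receptors fell into a pair found in every class, *Insr* and *Igf1r*, a set of 3 with most of their UMIs in neurons, *Lepr*, *Calcr* and *Gipr*, and a set of 3 that was near the limit of detection, *Ghsr*, *Mc3r* and *Mc4r*. Over all typed nuclei, *Igf1r* had 21990 UMIs and *Insr* 6601, of which 30.6% and 45.6% came from neurons. For scale, all genes together had 30663823 UMIs in neurons and 27854963 in oligodendrocytes, the largest glial class. *Calcr* had 938 UMIs, 96.8% of them in neurons, *Lepr* 509 with 90.8%, and *Gipr* 599 with 64.9%. *Mc4r* had 24 UMIs, *Mc3r* 20 and *Ghsr* 14.

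**Figure D1:**
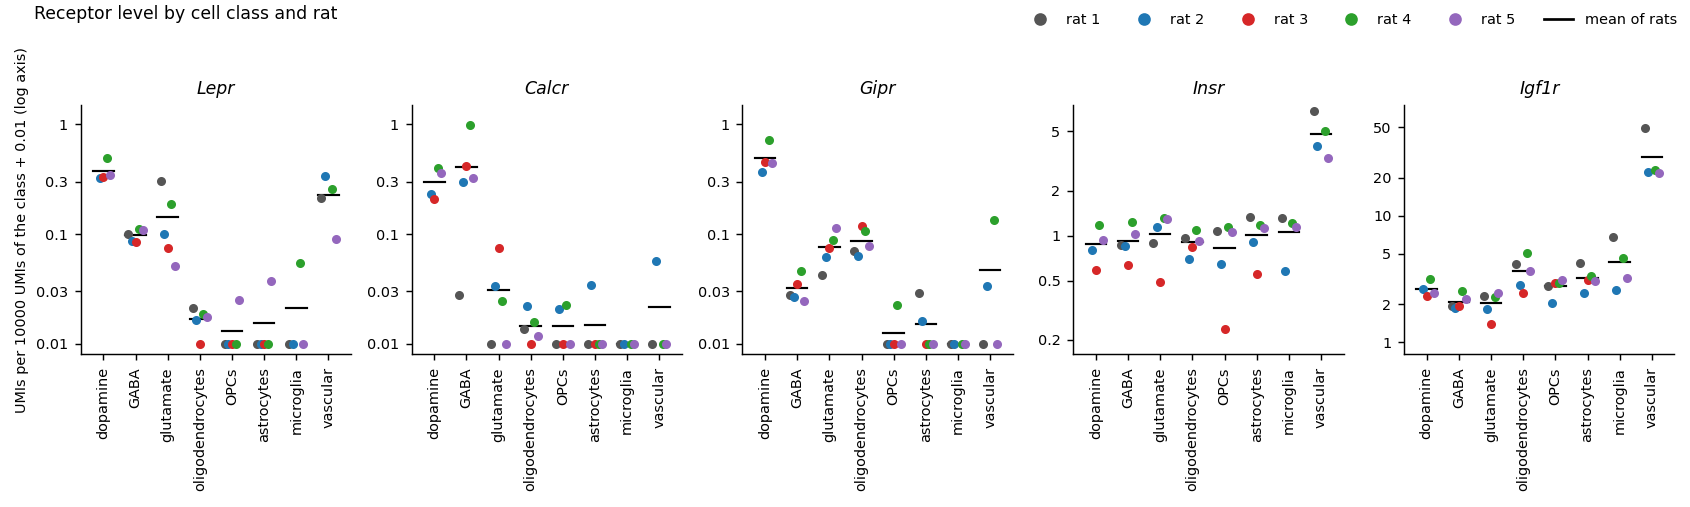
Level of 5 receptor genes in 8 cell classes, in UMIs per 10000 UMIs of the class plus 0.01, on log axes that differ between genes. Each point is 1 rat and each black line the mean over rats with at least 10 nuclei of the class. The 4 dopamine points of *Lepr* and *Gipr* lie above every GABA point, those of *Calcr* overlap the GABA points, and the vascular points of *Insr* and *Igf1r* lie above those of all other classes.

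The leptin receptor gene *Lepr* was higher in dopamine neurons than in the other neuron classes tested, GABA and glutamate. Its mean level was also highest there among the 8 classes, but rat 2 had more in vascular nuclei (0.331), and dopamine exceeded vascular nuclei in 2 of 3 rats. Its dopamine level was 0.317 UMIs per 10000 in rat 2, 0.319 in rat 3, 0.488 in rat 4 and 0.332 in rat 5, or 0.364 ± 0.0829 (SD, n = 4 rats). In GABA neurons it was 0.0895, 0.0773, 0.0749, 0.101 and 0.0985 in rats 1 to 5, and the groups did not overlap. In glutamate neurons it spread from 0.0411 in rat 5 to 0.294 in rat 1, with a median of 0.0903, and that highest value rested on 9 UMIs of 34 nuclei. In edgeR's quasi-likelihood test on sums per rat and class, with rat as a block and Benjamini-Hochberg adjustment over all genes, *Lepr* was 4.33-fold higher in dopamine than in GABA neurons (log2 fold change 2.11 ± 0.21 SE, adjusted p = 5.24e-07, higher in 4 of 4 rats). It was 3.30-fold higher than in glutamate neurons (log2 1.72 ± 0.24, adjusted p = 4.04e-05, 4 of 4 rats). GABA and glutamate neurons differed by -0.39 ± 0.26 (adjusted p = 0.548, in that direction in 3 of 5 rats), less than the spread between rats. Without rat 3, as without any other single rat, both dopamine differences stayed past the threshold of 0.05, with log2 values of 2.03 to 2.27 and 1.65 to 1.89.

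At least 1 *Lepr* UMI was seen in 158 of 952 dopamine neurons, or 16.6% (exact binomial 95% interval 14.3 to 19.1%, counting error only). By rat it was 19.7%, 28.5% and 21.8% in rats 2, 4 and 5 and 5.14% in the shallow library of rat 3, so the pooled share lies between them. The share was 4.68% in GABA neurons (3.88 to 5.61%) and 7.48% in glutamate neurons (5.80 to 9.47%), against 0.263% in oligodendrocytes (0.165 to 0.397%). Median depths were 6284, 5359, 5711 and 2885 UMIs in that order. With every nucleus thinned to 1000 UMIs the shares were 3.19%, 0.788%, 1.06% and 0.0705%, in the same order of classes. A second UMI was present in 5.57% of dopamine neurons, and 49 of the 952 held at least 50% of the transcripts, up to 5 UMIs in 1 nucleus.

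**Figure D2:**
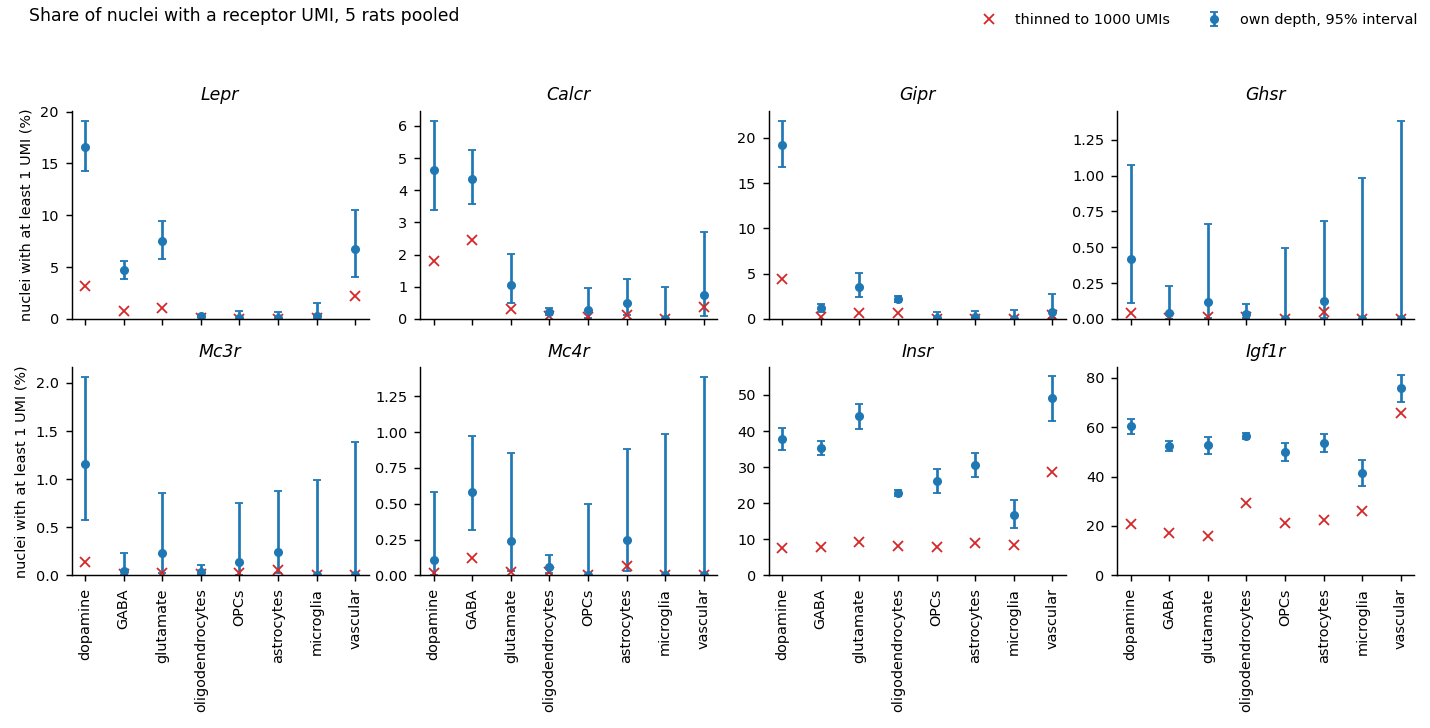
Share of nuclei with at least 1 UMI of each of the 8 receptor genes, in percent, by cell class over 5 rats pooled (rat 1 adds 6 dopamine neurons). Circles are shares at each nucleus's own depth with exact binomial 95% intervals, crosses are shares after thinning to 1000 UMIs, and the vertical scales differ between genes. The dopamine circles of *Lepr* and *Gipr*, at 16.6% and 19.2%, stand above all other classes, and the intervals of *Ghsr* and *Mc4r* reach to near 0 in most classes.

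Outside neurons *Lepr* was low in glia and detected in vascular nuclei. It had 22 UMIs in 8378 oligodendrocytes, 1 in 740 OPCs, 2 in 816 astrocytes and 1 in 372 microglia. The pooled neuronal level was 19.1 times that of oligodendrocytes (interval from counting error 12.4 to 30.7), 42.2 times that of OPCs (7.53 to 1669), 26.4 times that of astrocytes (7.27 to 219) and 12.1 times that of microglia (2.16 to 479), and the test across genes called it lower in each (adjusted p from 1.69e-14 to 0.000598). With so few UMIs in glia, *Lepr* could not pass the filter on low counts through glial sums, so the direction of these calls was set beforehand. Vascular nuclei had 19 *Lepr* UMIs, a level of 0.215 ± 0.104 (SD, n = 4), with 14 of them in rat 2. The pooled neuronal level was 0.585 times the vascular one (0.370 to 0.981), the other way from glia. Vascular and neuronal levels differed by 0.57 ± 0.41 on the log2 scale (adjusted p = 0.25, higher in 2 of 4 rats), and by -0.22 without rat 2. Of the 19 UMIs, 8 lay in 148 endothelial-like nuclei and 7 in 20 fibroblast-like nuclei, 18 of which came from rat 2. *Leprot*, a gene that overlaps *Lepr* in the RefSeq annotation and encodes a small endosomal protein, was highest in microglia (0.997 ± 0.115, n = 4) and next in vascular nuclei (0.674 ± 0.228, n = 4), against 0.0843 ± 0.0126 in dopamine neurons (n = 4). The part of *Leprot* in the vascular counts of *Lepr* was not tested.

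The GIP receptor gene *Gipr* was higher in dopamine neurons than in GABA and glutamate neurons. Its dopamine level was 0.359 in rat 2, 0.441 in rat 3, 0.705 in rat 4 and 0.436 in rat 5 (0.485 ± 0.151, SD, n = 4). GABA neurons ranged from 0.0145 to 0.0363 (median 0.0179, n = 5) and glutamate neurons from 0.0327 to 0.103 (median 0.0653, n = 5), so that neither overlapped dopamine neurons. The edgeR quasi-likelihood test gave a 21.7-fold higher level in dopamine than in GABA neurons (log2 4.44 ± 0.21, adjusted p = 1.11e-10) and a 7.57-fold higher level than in glutamate neurons (log2 2.92 ± 0.22, adjusted p = 4.02e-08), both in 4 of 4 rats. Leaving out 1 rat at a time gave 4.36 to 4.49 and 2.70 to 3.04 on the log2 scale. All 14 alternative analyses gave 3.80 to 5.11 and 2.62 to 3.04. With 296 UMIs in dopamine neurons, *Gipr* passed the filter on low counts through its dopamine sums. The direction of both dopamine calls was thus set beforehand, and they add no support to the levels by rat. *Gipr* was also lower in GABA than in glutamate neurons by 1.52 on the log2 scale (-1.52 ± 0.32, adjusted p = 0.00634, 5 of 5 rats), a call resting on 29 and 36 UMIs. That last call held in 10 of 14 alternative analyses and was lost without rat 2 (adjusted p = 0.0576), without the rat block (0.0768), with doublets kept (0.0841) and with nuclei typed by their own markers (0.103).

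*Gipr* was detected in 19.0%, 36.4% and 26.4% of dopamine neurons in rats 2, 4 and 5 and in 7.07% in rat 3. Pooled, it was detected in 183 of 952 dopamine neurons (19.2%, 16.8 to 21.9%), 1.16% of GABA neurons (0.773 to 1.67%) and 3.56% of glutamate neurons (2.42 to 5.05%). The oligodendrocyte share was 2.21% (1.90 to 2.55%), which is above the GABA share. At 1000 UMIs per nucleus the shares were 4.44%, 0.206%, 0.675% and 0.632%. At that depth the GABA share lay below that of oligodendrocytes and the glutamate share was close to it. OPCs and astrocytes had lower shares at their own depth, 0.135% (0.00342 to 0.751%) and 0.245% (0.0297 to 0.883%), with median depths of 3489 and 3806 UMIs.

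Oligodendrocytes stood out among glia for *Gipr*. Their level was 0.0594, 0.0525, 0.108, 0.0975 and 0.0682 in rats 1 to 5 (0.0771 ± 0.0243, SD, n = 5), from 205 UMIs, while 740 OPCs held 1 UMI, 816 astrocytes 2 and 372 microglia 0. A count of 0 allows up to 0.806% of microglia with a UMI and sets no limit on the share that expresses the gene. Subtracting each library's free RNA left 0.0759. *Eml2*, a gene of a microtubule-associated protein that overlaps *Gipr* in the RefSeq annotation, was also highest in oligodendrocytes, at 5.43 ± 0.954 (n = 5) against 1.61 ± 0.217 in dopamine neurons (n = 4), 1.67 ± 0.245 in GABA neurons (n = 5) and 0.466 to 1.19 in OPCs, astrocytes and microglia. The files do not say how reads in the overlap were assigned, and the part of *Eml2* in the oligodendrocyte counts of *Gipr* was not tested.

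Among the neuron classes tested, the calcitonin receptor gene *Calcr* was shared by GABA and dopamine neurons and low in glutamate neurons. Its GABA level was 0.0179 in rat 1, 0.286 in rat 2, 0.408 in rat 3, 0.976 in rat 4 and 0.316 in rat 5 (0.401 ± 0.353, SD, n = 5), and its dopamine level was 0.223, 0.198, 0.386 and 0.351 in rats 2 to 5 (0.290 ± 0.0933, SD, n = 4). These groups overlapped, and the difference of -0.57 ± 0.23 on the log2 scale did not pass the edgeR test (adjusted p = 0.0834, lower in dopamine neurons in 3 of 4 rats). It passed in 4 of 14 alternative analyses, among them without rat 5 (-0.81, adjusted p = 0.0369) and with finer clusters (-1.14, adjusted p = 0.00409). In glutamate neurons *Calcr* was at 0 in rats 1 and 5 and reached 0.0653 in rat 3, from 11 UMIs in all. It was 15.6-fold higher in dopamine than in glutamate neurons (log2 3.96 ± 0.46, adjusted p = 6.46e-06, 4 of 4 rats) and 23.2-fold higher in GABA than in glutamate neurons (log2 4.54 ± 0.41, adjusted p = 1.64e-06, 5 of 5 rats). Without rat 4 these were 3.30 and 3.54 on the log2 scale, and the mean *Calcr* level of GABA neurons was 0.257. Over 14 alternative analyses the 2 log2 differences ranged from 1.446 to 4.725 and from 2.443 to 5.319. Their size thus depended on the processing, while all stayed past the threshold. With 11 UMIs in glutamate neurons, *Calcr* passed the filter on low counts through its GABA and dopamine sums. The direction of both calls against glutamate neurons was thus set beforehand. These calls and their alternatives add no support to the counts.

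Few nuclei carried most of the *Calcr* transcripts. It was detected in 105 of 2412 GABA neurons (4.35%, 3.57 to 5.25%) and 44 of 952 dopamine neurons (4.62%, 3.38 to 6.16%), against 0.227% of oligodendrocytes (0.137 to 0.354%). By rat the share was 1.59 to 9.93% of GABA neurons and 2.25 to 7.47% of dopamine neurons, lowest in rat 1 for GABA and rat 3 for dopamine neurons (rats 2 to 5). Nuclei with any had 5.62 UMIs on average in the GABA class and 4.16 in the dopamine class, where *Lepr* had 1.10 and 1.44. Of the GABA neurons, 20 held at least 50% of the 590 UMIs, and the highest held 30. Of the dopamine neurons, 8 held at least 50% of the 183 UMIs. At 1000 UMIs per nucleus the shares were 2.46% in GABA and 1.81% in dopamine neurons, against 0.0812% in oligodendrocytes.

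Among GABA clusters, 467 of the 590 *Calcr* UMIs fell in the 762 nuclei led by *Npas1*, a transcription factor gene, where rats 2, 4 and 5 had 0.599, 1.81 and 0.493 UMIs per 10000 and rat 1 had 0.0237. The GABA neurons of rat 3 lay in other clusters, 3 of 677 being in this one, and 28 of their 49 *Calcr* UMIs fell in 11 nuclei of a cluster of 179 that held rat 3 alone. A GABA cluster of 57 nuclei, 55 of them from rat 2, held 56 more in 7 nuclei, and in rat 2 its level of 1.37 was above that of the *Npas1* cluster. Among dopamine neurons, 63 of 183 UMIs fell in a sub-cluster of 21 nuclei (8 nuclei with any) that had *Iqgap2* and *Piezo2* among its leading genes. This sub-cluster scored 0.673 for dopamine and 0.313 for GABA markers. The dopamine clusters of 414 and 210 nuclei scored 0.044 and 0.045 for GABA markers. A further 62 fell in 30 unsettled neurons that scored 0.377 for dopamine, 0.389 for GABA and 0.27 for glutamate markers. The receptor genes were not used for clustering.

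In glia and vascular nuclei *Calcr* was close to 0. It had 19 UMIs in oligodendrocytes, 2 in OPCs, 4 in astrocytes, 2 in vascular nuclei and 0 in microglia. The pooled neuronal level was 43.4 times that of oligodendrocytes (27.6 to 72.4) and 26.0 times that of astrocytes (10.1 to 95.5), and at least 7.81-fold higher than in microglia, taking 3 UMIs over the 4 rats as the floor. The edgeR test called it lower than in neurons in all 5 classes (adjusted p from 1.20e-16 to 0.000187). With so few UMIs outside neurons, *Calcr* passed the filter on low counts through its neuronal sums. The direction of these calls was thus set beforehand, and they add no support to the counts.

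**Figure D3:**
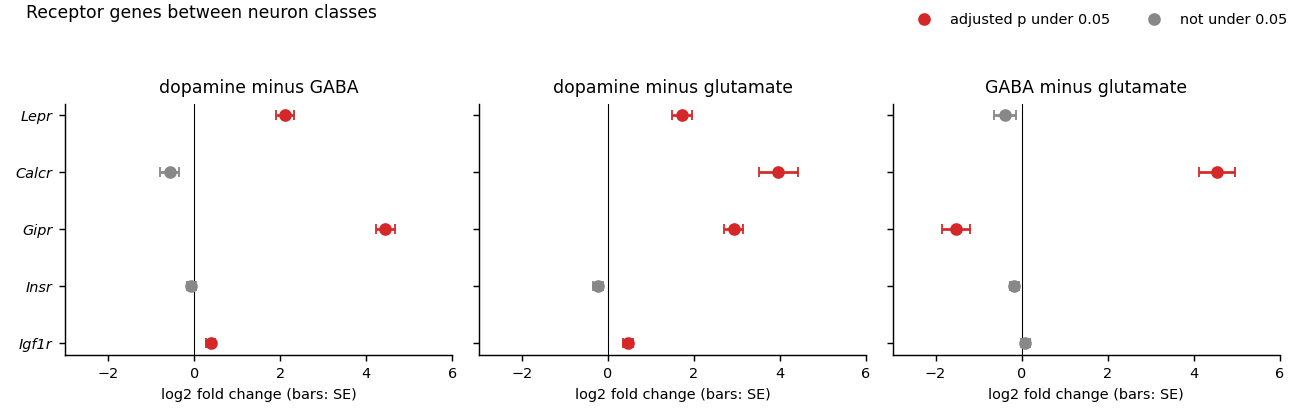
Log2 fold change of the 5 receptor genes that passed the filter on low counts, for the 3 pairs of neuron classes, from edgeR's quasi-likelihood fit. Bars are standard errors worked out from the F value of the test, and red points have an adjusted p under 0.05. *Gipr* was highest in dopamine neurons by 4.44 and 2.92 and *Calcr* lowest in glutamate neurons by 3.96 and 4.54, while *Insr* lay within 0.23 of 0 in each pair.

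Of the 5 receptor genes that could be tested between neuron classes, 3 passed for dopamine against GABA neurons, where 22.7% of all 11342 genes tested passed. For dopamine against glutamate neurons 4 of 5 passed, against 17.5% of all genes, and for GABA against glutamate neurons 2 of 5, against 6.07%. Without the rat block these counts were 2, 3 and 1. In both dopamine comparisons all genes that passed were higher in dopamine neurons. *Gipr* had 296 UMIs in dopamine neurons and 29 and 36 in GABA and glutamate neurons, so it passed the filter on low counts through its dopamine sums. *Calcr*, low in glutamate neurons, passed it through its GABA and dopamine sums (590 and 183 UMIs). The direction was thus set beforehand for *Gipr* in both dopamine comparisons and for *Calcr* in both comparisons with glutamate neurons. The 8 genes were also chosen with earlier results of these data known. These counts, and the medians that follow, describe the genes and are no test of them as a set. The median log2 fold change of the 5 was 0.38 and 1.72 in these comparisons and -0.17 for GABA against glutamate neurons, where the medians over all genes were -0.02, 0.00 and 0.01. In the fit of glia and vascular nuclei against all neurons, 4 of the 8 could be tested. Oligodendrocytes had 3 of 4 past the threshold, against 69.1% of 11003 genes, OPCs 2 (43.3%), astrocytes 3 (55.9%), microglia 3 (54.7%) and vascular nuclei 3 (52.9%). These include *Lepr* and *Calcr* in each glial class and *Calcr* in vascular nuclei, calls whose direction the filter had set. *Gipr* did not pass the filter on low counts in that fit, and without the filter it was called lower than in neurons in all 5 classes (adjusted p from 1.48e-11 to 0.0344). Dopamine neurons held 296 of the 389 neuronal UMIs, and the mean level of oligodendrocytes, 0.0771, lay above those of glutamate neurons (0.0663, in 4 of 5 rats) and GABA neurons (0.0221, in 5 of 5 rats). The pooled neuronal level was 1.72 times that of oligodendrocytes (1.45 to 2.05), 22.2 times that of astrocytes (6.11 to 184) and at least 3.29-fold higher than in microglia.

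The dopamine neurons themselves were not uniform. In rats 2, 4 and 5 most of them fell into a cluster led by *Col24a1* and *Aldh1a1* (414 nuclei) and one with *Chrnb3* and *Ntf3* among its leading genes (210 nuclei). *Gipr* was at 0.523, 0.819 and 0.635 in the first cluster and 0.153, 0.431 and 0.136 in the second, in rats 2, 4 and 5. *Lepr* went the other way, with 0.224, 0.460 and 0.233 in the first and 0.459, 0.632 and 0.543 in the second. Both orders held in 3 of 3 rats. The clusters were drawn from these same nuclei, and the difference between them was not tested. The dopamine cluster of rat 3, which held 307 of its 311 dopamine neurons, had 0.430 for *Gipr* and 0.323 for *Lepr*.

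*Lepr* and *Gipr* met in the same nuclei at times. Both were detected in 46 dopamine neurons, which is 29.1% of the *Lepr* nuclei and 25.1% of the *Gipr* nuclei. *Gipr* was detected in 17.3% of dopamine neurons without *Lepr*, which were shallower, with a median of 5400 UMIs against 9464. *Calcr* and *Gipr* were both detected in 6 dopamine neurons, and *Calcr* and *Lepr* in 16. Depth was not held equal in these counts.

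**Figure D4:**
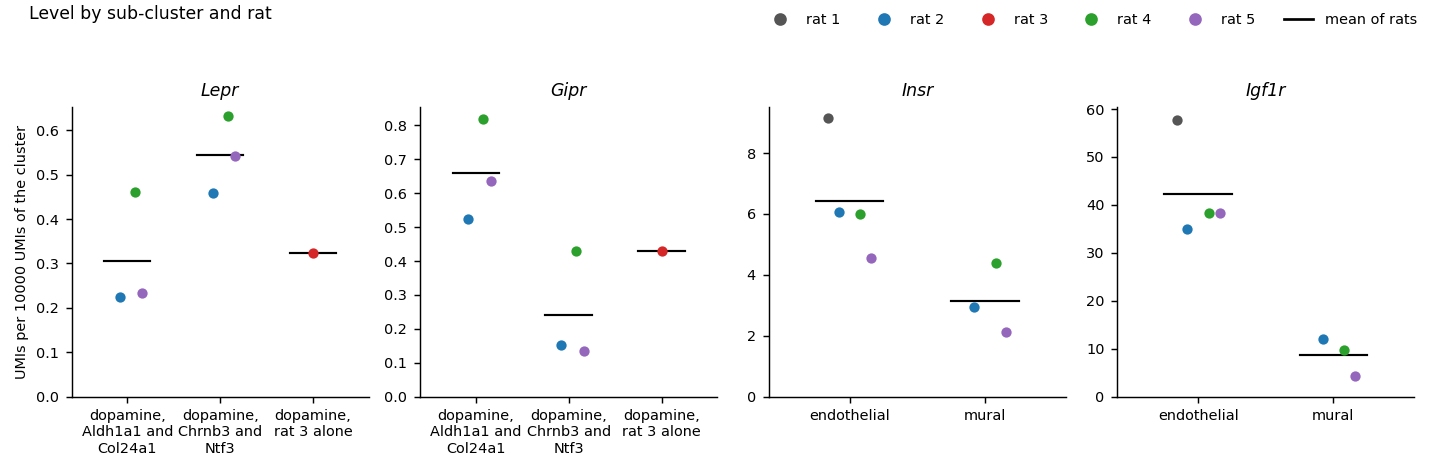
Level of *Lepr* and *Gipr* in 3 dopamine clusters and of *Insr* and *Igf1r* in endothelial-like and mural-like nuclei, in UMIs per 10000 UMIs of the cluster. Points are rats with at least 10 nuclei of the cluster and black lines their means. The *Gipr* points are higher in the *Aldh1a1* and *Col24a1* cluster and the *Lepr* points in the *Chrnb3* and *Ntf3* cluster in rats 2, 4 and 5, and endothelial points lie above mural ones.

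The insulin receptor gene *Insr* was higher in vascular nuclei than in neurons, with similar mean levels over neurons and glia. Its level was 0.577 to 1.16 in dopamine neurons (median 0.858, n = 4), 0.624 to 1.22 in GABA neurons (median 0.859, n = 5) and 0.479 to 1.29 in glutamate neurons (median 1.14, n = 5), and rat 3 was the lowest in each. None of the 3 pairs passed the edgeR test (log2 -0.06 ± 0.11, -0.23 ± 0.12 and -0.17 ± 0.11, adjusted p = 0.751, 0.228 and 0.537). Means in glia were 0.895 in oligodendrocytes, 0.821 in OPCs, 1.01 in astrocytes and 1.05 in microglia, and none differed from neurons past the threshold (adjusted p from 0.449 to 0.957). In vascular nuclei the level was 6.83 in rat 1, 3.99 in rat 2, 5.04 in rat 4 and 3.28 in rat 5, above every other class in each rat. It was 3.92-fold that of neurons (log2 1.97 ± 0.18, adjusted p = 4.47e-12, 4 of 4 rats).

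*Insr* was detected in 37.8% of dopamine, 35.2% of GABA and 44.1% of glutamate neurons, but in 22.8% of oligodendrocytes and 16.7% of microglia. Depth differed over these classes, and at 1000 UMIs per nucleus the shares were 7.54%, 7.88%, 9.16%, 8.12% and 8.47%. The vascular share was 49.1% (42.9 to 55.2%) and 28.8% after thinning.

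The gene of the related receptor for insulin-like growth factors, *Igf1r*, showed the same vascular excess on a larger scale. Its vascular level was 48.9 in rat 1, 22 in rat 2, 23.0 in rat 4 and 21.5 in rat 5, against 1.95 to 2.55 in all neurons. The log2 difference was 3.32 ± 0.20 (adjusted p = 9.76e-17, 4 of 4 rats) and 3.01 without rat 1. Vascular nuclei with *Igf1r* made up 75.8% (70.2 to 80.9%) and still 65.6% at 1000 UMIs, where the other classes ranged from 16.1 to 29.2%. The endothelial-like nuclei carried most of it, with 57.7, 34.9, 38.3 and 38.2 UMIs per 10000 in rats 1, 2, 4 and 5, against 12.1, 9.74 and 4.21 in mural-like nuclei of rats 2, 4 and 5. *Insr* had 9.15, 6.05, 5.99 and 4.56 in the endothelial-like nuclei and 2.94, 4.38 and 2.11 in the mural-like ones.

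Smaller differences of *Igf1r* ran through the other classes. Dopamine neurons had 2.32 to 3.16 (median 2.52, n = 4), and the level was higher than in GABA neurons by 0.38 ± 0.11 on the log2 scale (adjusted p = 0.0140) and than in glutamate neurons by 0.46 ± 0.11 (adjusted p = 0.00701), in 4 of 4 rats each. The first call was lost without rat 2 or rat 4 (adjusted p = 0.0962 and 0.0562) and with finer clusters (0.0570), and the second without rat 2 (0.0584), and without the rat block both were lost (0.306 and 0.203). Oligodendrocytes ranged from 2.45 in rat 3 to 5.10 in rat 4, and they were higher than neurons by 0.82 ± 0.18 (adjusted p = 9.69e-05, 5 of 5 rats). Microglia and astrocytes were higher than neurons by 0.64 ± 0.21 and 0.46 ± 0.18 (adjusted p = 0.00957 and 0.0333), and the calls held in 11 and 8 of 14 alternative analyses. The microglial call was lost without rat 1 (adjusted p = 0.128), with no filter on low counts (0.102) and with nuclei typed by their own markers (0.153). The astrocyte call was lost without rat 1, 4 or 5 (0.156, 0.0717 and 0.0501), without the rat block (0.155), with no filter (0.0579) and with own markers (0.332). OPCs did not differ past the threshold (0.23 ± 0.19, adjusted p = 0.349).

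*Insr* and *Igf1r*, which were detected in every class, also had promoters rich in CpG, the dinucleotide that can be methylated, and they are shown beside the promoter of *Calcr*, which had most of its UMIs in neurons. RefSeq promoter sequences (build GRCr8, 250 bases before to 50 after the annotated start, printed on the gene's strand, 5′ to 3′) were found for 7 of the 8 genes, not *Gipr*, and the capitals mark each CG. The stretch listed for *Lepr* lies within *Leprot* and is not used here.
Igf1r, + strand: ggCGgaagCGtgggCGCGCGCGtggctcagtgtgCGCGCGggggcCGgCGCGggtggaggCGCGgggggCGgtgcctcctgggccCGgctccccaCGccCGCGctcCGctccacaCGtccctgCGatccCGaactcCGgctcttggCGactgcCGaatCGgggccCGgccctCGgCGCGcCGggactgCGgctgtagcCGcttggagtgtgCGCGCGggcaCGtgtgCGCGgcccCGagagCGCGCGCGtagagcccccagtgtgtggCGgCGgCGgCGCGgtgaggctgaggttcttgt
Insr, - strand: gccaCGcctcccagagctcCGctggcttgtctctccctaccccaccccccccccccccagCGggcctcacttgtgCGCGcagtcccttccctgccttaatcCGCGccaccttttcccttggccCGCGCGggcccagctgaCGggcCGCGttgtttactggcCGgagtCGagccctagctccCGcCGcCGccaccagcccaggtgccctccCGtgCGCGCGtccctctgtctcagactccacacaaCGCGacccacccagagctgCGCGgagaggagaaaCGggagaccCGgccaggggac
Calcr, - strand: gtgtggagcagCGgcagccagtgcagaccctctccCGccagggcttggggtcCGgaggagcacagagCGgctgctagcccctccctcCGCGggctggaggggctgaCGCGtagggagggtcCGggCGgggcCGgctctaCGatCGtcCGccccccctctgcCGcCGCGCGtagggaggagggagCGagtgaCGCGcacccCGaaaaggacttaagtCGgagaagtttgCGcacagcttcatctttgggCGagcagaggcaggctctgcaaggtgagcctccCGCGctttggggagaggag
CG occurred 50 times in the *Igf1r* promoter, 28 times in that of *Insr* and 27 times in that of *Calcr*. The median over all 33469 promoters was 7, and 94.5% held at least 1. *Ghsr* had 21, *Mc4r* 9 and *Mc3r* 5. A relation between CpG number and the cell classes was not tested.

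The ghrelin and melanocortin receptor genes were too sparse for the tests between classes. *Mc3r*, *Mc4r* and *Ghsr* did not pass the filter on low counts in either fit, and no nucleus held more than 1 UMI of any of them in the 8 classes compared. *Mc3r* was seen in 11 of 952 dopamine neurons (1.16%, 0.578 to 2.06%), 1 of 2412 GABA neurons (0.0415%, 0.00105 to 0.231%) and 2 of 842 glutamate neurons (0.238%, 0.0288 to 0.855%), against 3 of 8378 oligodendrocytes (0.0358%, 0.00738 to 0.105%). With no filter on low counts the edgeR test called it higher in dopamine than in GABA neurons (adjusted p = 0.0110, 3 of 4 rats). That call rests on 11 nuclei against 1, and *Mc4r* and *Ghsr* were not called for this pair in the same setting. *Mc4r* had its counts in another class, with 14 of 2412 GABA neurons (0.580%, 0.318 to 0.972%), 1 dopamine and 2 glutamate neurons, against 5 oligodendrocytes (0.0597%, 0.0194 to 0.139%). Of the 14, 12 were in the *Npas1* cluster, in 4 rats. *Ghsr* was seen in 4 dopamine neurons, 1 GABA and 1 glutamate neuron and 3 oligodendrocytes. All 3 genes had 0 UMIs in vascular nuclei, which allows up to 1.13% of these nuclei with a UMI. At this depth that does not show whether vascular nuclei express them.

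Serotonin neurons (42, 77, 17 and 15 nuclei in rats 2 to 5) were not among the classes chosen for the tests. They had 0.0993 ± 0.0726 for *Lepr*, 0.252 ± 0.153 for *Calcr* and 1.37 ± 0.383 for *Igf1r* (SD, n = 4 rats). They held 2 *Gipr* UMIs in 151 nuclei.

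When the 8 classes were ordered by mean level, few neighbours in the order differed in every rat. Over *Lepr*, *Calcr*, *Gipr*, *Insr* and *Igf1r* there were 35 pairs of neighbouring classes, and in 6 every rat shared the order: *Lepr* in GABA neurons over microglia, *Insr* and *Igf1r* in vascular nuclei over microglia, *Igf1r* in dopamine over GABA neurons, *Calcr* in dopamine over glutamate neurons and *Gipr* in dopamine neurons over oligodendrocytes. An exact sign-flip test over 5 rats cannot give a two-sided p below 0.0625, and over 4 rats below 0.125, so no pair could pass. The smallest adjusted p was 0.547. For *Insr* below vascular nuclei, 1 to 3 rats shared the order in each pair.

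Genes with a distribution most like that of a receptor were sought over 37 sums of 8 classes and 5 rats, among 10469 genes, as a description. *Lepr* was closest to *LOC103694210* (r = 0.914), *Trpc4* (0.903), a cation channel gene, and *Grb10* (0.889), which encodes an adaptor that binds Insr and Igf1r. *Insr* was closest to *Ifnar1* (0.870), *Igf1r* (0.842) and *Hspa12b* (0.838). *Igf1r* was closest to *Ankdd1b* (0.903), *Nxpe5l1* (0.897) and the endothelial VEGF receptor gene *Flt1* (0.893), and *Calcr* to *Stac* (0.840), *Sphkap* (0.826) and *Cadps2* (0.797). The sums share libraries and differ in depth.

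Genes of the ligands and signalling steps around these receptors were taken from a list of 70, of which 68 were in the files and 41 could be tested in each fit. In dopamine against GABA neurons 10 of 41 passed, 7 of them higher in dopamine neurons, which is 24.4% of the list beside 22.7% of all genes. For dopamine against glutamate neurons 7 passed (5 higher), or 17.1% beside 17.5%, and for GABA against glutamate neurons 4 passed (4 higher), or 9.76% beside 6.07%. Of 8 leptin signalling genes tested, 2 passed (25%) in each dopamine comparison. *Stat3*, the transcription factor of leptin signalling, was higher in dopamine than in GABA neurons by 0.80 ± 0.13 (adjusted p = 0.000134). *Igfbp3*, a binding protein gene of insulin-like growth factors, was higher by 1.04 ± 0.36 (adjusted p = 0.0464), and *Pik3cb*, a kinase subunit gene, was lower (-0.50 ± 0.11, adjusted p = 0.00224). *Ptpn1*, a phosphatase that limits leptin and insulin signalling, was higher in dopamine than in glutamate neurons by 0.61 ± 0.12 (adjusted p = 0.00143), as were the adaptor genes *Grb10* by 0.79 ± 0.10 (adjusted p = 1.51e-05) and *Grb14* by 0.998 ± 0.18 (adjusted p = 0.000692), while *Igfbp5* was lower (-1.63 ± 0.28, adjusted p = 0.000376). *Grb14* was also higher in GABA than in glutamate neurons, by 1.16 ± 0.17 (adjusted p = 0.000229). *Foxo1*, a transcription factor that insulin signalling restrains, was lower in dopamine than in GABA neurons (-3.14 ± 0.35, adjusted p = 2.31e-06) and than in glutamate neurons (-1.84 ± 0.44, adjusted p = 0.00627). *Gfral*, the receptor gene for GDF15, was higher in dopamine than in GABA neurons by 0.85 ± 0.17 (adjusted p = 0.00147).

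Outside neurons the same list gave 26 genes past the threshold in oligodendrocytes (11 higher), 19 in OPCs (11 higher), 25 in astrocytes (13 higher), 23 in microglia (13 higher) and 24 in vascular nuclei (17 higher). These are 46.3 to 63.4% of the list, where 43.3 to 69.1% of all genes passed. *Grb10* was lower than in neurons by 4.30 to 4.61 on the log2 scale in OPCs, astrocytes, microglia and oligodendrocytes. *Igf1*, the ligand of Igf1r, was higher in microglia (3.05 ± 0.36, adjusted p = 3.18e-09) and lower in OPCs (-2.63 ± 0.65, adjusted p = 0.00104). *Igfbp7*, which encodes a binding protein of this growth factor family, was higher in vascular nuclei by 5.91 ± 0.24 (adjusted p = 6.27e-22), where *Calcrl*, the gene of a receptor related to Calcr, and *Ramp2*, its accessory protein gene, were higher by 4.93 ± 0.29 and 3.31 ± 0.30. *Calcrl* and *Ramp1* were higher in OPCs by 6.61 ± 0.25 and 4.73 ± 0.24. *Calcrl* was also higher in microglia (5.32 ± 0.28) and *Ramp1* in astrocytes (2.82 ± 0.29). *Mrap2*, an accessory protein gene of melanocortin receptors, was lower in OPCs, astrocytes and vascular nuclei by 3.45 to 4.06.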

How the data were processed

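The authors deposited unfiltered UMI counts per gene and barcode for nuclei of 5 rats (10x Genomics 3′ v3.1). The submitters' notes name Cell Ranger 8.0.1 and the matrix headers an earlier version, and the genome build is not given in the sources used here.

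Kept barcodes were clustered without the 8 genes and the pathway list (scanpy 1.11.5, leidenalg 0.10.2, resolution 1, Python 3.11.15). Scrublet's automatic threshold marked 8 barcodes, so an expected rate of 0.8% per 1000 nuclei was used instead (26 to 697 removed per rat). Clusters whose profile correlated with free RNA at 0.92 or more and clusters of mixed markers were left out. The scoring of clusters against the fixed markers was set after the clusters were seen. *Lhfpl3*, *Pecam1*, *Abcb1a*, *Col1a2*, *Foxj1*, *Mc1r* and *Irs4* were not analysed here.

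Counts were summed per rat and class (at least 10 nuclei) and tested with edgeR 4.0.16 in R 4.3.3 (TMM, filterByExpr, quasi-likelihood, rat as a block, Benjamini-Hochberg adjusted p under 0.05). Neuron classes were fitted together, and glia, vascular nuclei and all neurons in a second fit. Rats are the replicates. Standard errors of log2 fold changes were worked out as the absolute log2 fold change over the square root of the test's F value. Sums of the same rat deviated together (r 0.294 to 0.817 over 13 pairs of neuron sums and 0.037 to 0.719 over 66 pairs in the second fit). On simulated data the test recovered 16.2% of 2-fold and 92.9% of 4-fold changes for dopamine minus GABA neurons (11362 genes) and 38.3% and 100% for oligodendrocytes minus neurons (9866 genes), with false shares of 4.46% and 3.73%. The simulated counts had a fixed dispersion, the same mean profile in every sum apart from the changed genes, and no rat effect. Recovery and false shares in the real sums can differ.

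Alternatives were DESeq2 1.42.0, its size factors, no filter on low counts, no block, free RNA subtracted, at least 2000 UMIs, typing by each nucleus's own markers, doublets kept, resolution 2, detection at 2 UMIs, thinning to 1000 UMIs and leaving out each rat. Of the pathway list, up to 3 genes per direction with the largest changes that passed and moved alike in every rat could be named, and per receptor the 3 genes most like it (Pearson r of log2 levels plus 0.01). The 8 genes and the lists were chosen with earlier results of these data known.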

Additional observations from a re-analysis of the deposited data

Results flagged for a closer look

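In 26 groups of 4 or 5 rats (a gene in a class with at least 20 UMIs), 3 had a rat far from the others by Dixon's test, which chance does in about 1 in 20 groups. *Lepr* in dopamine neurons was highest in rat 4, at 0.488 UMIs per 10000 against 0.317 to 0.332 in rats 2, 3 and 5. *Igf1r* in vascular nuclei was highest in rat 1, at 48.9 from 18 nuclei, against 21.5 to 23.0 in rats 2, 4 and 5. *Igf1r* in OPCs was lowest in rat 2, at 2.02 against 2.79 to 3.10 in the other rats. The causes were not tested.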

How the results depend on the processing

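Of 480 alternative log2 fold changes of the receptor genes, 443 kept their direction and side of the threshold, 19 lost the call, 4 gained it and 14 changed sign. The number of receptor genes called was within 1.5 times the reported one in 104 of 112 alternatives. For dopamine minus GABA neurons it was 5 with no filter on low counts and 2 to 4 without single rats. For GABA minus glutamate neurons it was 1 with no replicate block, with typing by own markers and with doublets kept, and 1 to 2 without single rats. Without single rats it was 1 to 2 for OPCs and 1 to 3 for astrocytes, where without rat 3 or 4 fewer receptor genes passed the filter. Each value that changed sign was not past the threshold in either analysis. *Igf1r* for GABA minus glutamate neurons was -0.016 with typing by own markers and -0.001 to 0.146 without single rats. *Insr* for oligodendrocytes minus neurons was 0.054 with no filter, 0.066 with no replicate block, 0.113 with free RNA subtracted, 0.091 at 2000 UMIs, 0.076 with own markers, 0.1 with doublets kept, 0.04 at resolution 2 and -0.046 to 0.165 without single rats. *Lepr* for vascular nuclei minus neurons was -0.223 to 0.822 without single rats. The causes were not tested. Besides the *Igf1r* and *Gipr* calls given in the report, leaving out the block changed no call of these genes. Typing by own markers moved 4 of 26 mean levels, among them *Gipr* in dopamine neurons to 0.305 and *Lepr* to 0.268. Few counts lie behind *Ghsr*, *Mc3r* and *Mc4r*, and behind all glial values of *Lepr*, *Calcr* and *Gipr* that rest on 0 to 4 UMIs. The parts of depth and of low expression in this were not tested.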

Other observations

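Barcodes whose profile was like free RNA (3743, with a median of 1382 UMIs) were in no class above. They held 50 *Lepr*, 59 *Calcr*, 44 *Gipr*, 305 *Insr* and 875 *Igf1r* UMIs, and 5, 7 and 9 of *Ghsr*, *Mc3r* and *Mc4r*. None of them came from rat 3.

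In GABA neurons *Lepr* and *Calcr* were detected in 113 and 105 nuclei and both in 5. *Calcr* was detected in 4.42% of GABA neurons with *Lepr* and 4.35% of those without, whose median depths were 8822 and 5171 UMIs. In dopamine neurons these shares were 10.1% and 3.53%. Depth was not held equal, and the difference between the classes was not tested.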
